A study of Arabidopsis thaliana with 48 samples.

Results

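Light-grown mutant seedlings at 4 d after germination were compared with dark-grown mutant seedlings at 3 d, in whole seedlings of Arabidopsis thaliana. The comparison takes every library labelled with these groups, 3 in each, which are 6 of the 42 libraries in the series. Both groups carry the genotype labelled snrk1a1/a2 (kd in the titles) and neither received glucose. Each 3 d dark library is the sum of 2 columns that count the same library in 2 runs. Mutant seedlings kept in the dark to 4 d, wild-type seedlings at 4 d in light and wild-type seedlings at 3 d in the dark, 3 libraries each and also without glucose, are set beside them. The labels do not say how the mutant was made, when the light began or whether the replicates were grown apart. The p-values therefore measure only a spread between sequenced samples. That spread was estimated over all 42 libraries of 14 groups, including later and glucose-fed ones. Light and age differ together between the groups and cannot be told apart in the main comparison. In whole seedlings, fewer cells of a type and less RNA per cell cannot be told apart either.

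SnRK1 is the plant kinase of the AMPK and SNF1 family. It is active when energy runs short, slows growth and biosynthesis, and favours the breakdown of reserves, in part through bZIP transcription factors. Its catalytic subunits are KIN10 and KIN11. A seedling in the dark lives on seed reserves, stretches its hypocotyl and holds the protochlorophyllide reductases PORA and PORB ready; on reaching light it stops elongating, builds chloroplasts and begins to photosynthesise, and the light also sets its circadian clock.

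Gene levels are CPM, read counts brought to a common library size, here scaled with the TMM method. Changes are log2 fold changes ± standard error, with n = 3 libraries per group, and a gene is called at an adjusted p of 0.05 or below in edgeR's quasi-likelihood test (Benjamini-Hochberg adjustment over all tested genes). Library totals were 8008188 to 16614513 counts in mutant 4 d light and 16270663 to 26126836 in mutant 3 d dark. Of 22586 tested genes, 7674 (34.0%) were called between the groups, 3906 higher (17.3%) and 3768 lower (16.7%) at 4 d light, and the median over all tested genes was 0.05. At least a 4-fold change was called for 404 genes higher (1.79%) and 236 lower (1.04%). The first principal component of the 6 libraries held 54.3% of the variance and separated the groups. Mutant 4 d light library 1, the shallowest of the 6, stood apart on the second component (22.3% of the variance), at -76.9, with the other 2 libraries of its group at 37.4 and 20.2. Without it 7555 genes were called. Without mutant 4 d light library 2, the deepest of its group, 4703 were called. Gene lists are described by how many tested members were called and by their median, beside these background values. Genes named outside the naming rule were chosen after their values were seen.

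The groups that differ only in light or only in age were also compared. Mutant 4 d light and mutant 4 d dark seedlings differed in 535 genes (2.37%), 366 higher (1.62%) and 169 lower (0.748%) in light, with a median of 0.01 over all tested genes. Mutant 4 d dark and mutant 3 d dark seedlings differed in 5456 genes (24.2%), 2592 higher (11.5%) and 2864 lower (12.7%) at 4 d, also with a median of 0.01. Both comparisons share libraries with the main one, so their values are only set beside it. The count between light and dark at 4 d depends on the libraries: it was 163 with only these 6 libraries in the fit, 259 without mutant 4 d light library 2, and 301, 203 and 320 without mutant 4 d dark library 1, 2 and 3. The order of the counts depends on the fit: with only the compared groups in it, 4 d and 3 d in the dark differed in 6506 genes and the main groups in 4986, and with a replicate block added in 5058 and 4078. The count between 4 d and 3 d in the dark was 2668 without mutant 4 d dark library 3 and 3384 without mutant 3 d dark library 3.

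The genes in the mutant's name were measured first. KIN10 (AT3G01090, chromosome 3, 31181 to 34487, 11 exons) had 541, 123 and 149 CPM in mutant 4 d light, against 126, 86.2 and 109 CPM in mutant 3 d dark. Library 1 of 4 d light was far above the other 5, library 2 lay below the highest dark library, and the groups overlapped. The log2 change of 1.34 ± 0.40 (adjusted p = 0.00998) was called, but it was 0.34 (adjusted p = 0.471) without mutant 4 d light library 1 and 1.2 (adjusted p = 0.0512) without mutant 3 d dark library 2. Wild type had 136, 111 and 96.5 CPM of KIN10 at 4 d light, against 75.1, 83.3 and 71 CPM at 3 d dark. The mutant's KIN10 libraries were thus not below those of wild type: at 3 d dark each was above every wild-type library, and at 4 d light the groups overlapped, with no test made at one age. The RNA level does not check the genotype, since the labels do not say which part of the transcript the mutation leaves.

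KIN11 (AT3G29160, chromosome 3, 11128625 to 11132065) had 37.2, 32 and 39.8 CPM in mutant 4 d light, against 30.8, 34.4 and 24.7 CPM in mutant 3 d dark. Its groups overlapped and it was not called, at 0.28 ± 0.17 (adjusted p = 0.222). Wild type had 47, 43.1 and 43.8 CPM of KIN11 at 4 d light, above all 3 mutant libraries, and 32.5, 36.4 and 35 CPM at 3 d dark, where mutant and wild type overlapped. Of the other SnRK1 subunits and activating kinases, the upstream kinases GRIK1 (AT3G45240) and GRIK2 (AT5G60550), which phosphorylate the catalytic subunit, fell. GRIK1 had 31.5, 27.5 and 32.5 CPM in mutant 4 d light, against 45.6, 46.1 and 48.7 CPM in mutant 3 d dark. Light libraries all lay below the 3 d dark ones, with a change of -0.62 ± 0.14 (adjusted p = 0.00119), and GRIK2 changed by -0.60 ± 0.12 (adjusted p = 0.000422) with no overlap. The subunit KING1 was called higher at 0.64 ± 0.23 (adjusted p = 0.0337), and neither KIN10 nor KING1 was called without mutant 4 d light library 1. In all, 2 of the 9 members were called in each direction, shares near the 17.3% higher and 16.7% lower of all tested genes.

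The genes with the largest rises and falls were named by a rule on the size of the change among called genes whose groups do not overlap. AT4G12490 (chromosome 4, 7409621 to 7410406), a lipid-transfer family gene next to its near-identical relative EARLI1, had 10.3, 19.7 and 30.8 CPM in mutant 4 d light, against 0.117, 0.294 and 0.298 CPM in mutant 3 d dark. It was the largest rise, at 6.32 ± 0.78 (adjusted p = 1.68e-06), and every light library lay far above every 3 d dark one. Its 5.54, 11 and 3.98 CPM in mutant 4 d dark overlapped the light values. Reads of AT4G12490 and EARLI1 may be counted for each other. EARLI1 itself (AT4G12480) changed by 3.80 ± 0.61 (adjusted p = 3.93e-05). BGL2 (AT3G57260), the salicylic-acid-induced glucanase also called PR2, had 12.3, 32.2 and 18.3 CPM in mutant 4 d light, against 1.17, 0.257 and 2.14 CPM in mutant 3 d dark. BGL2 was higher in every light library, by 4.19 ± 1.06 (adjusted p = 0.00332), and its 9.11, 42.1 and 37.5 CPM in mutant 4 d dark overlapped the light values. Wild type had at most 0.216 CPM of BGL2 in any library of the 2 ages.

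ELI3-2 (AT4G37990), annotated as a cinnamyl alcohol dehydrogenase, had 3.59, 14.9 and 82 CPM in mutant 4 d light, against 2.47, 0.515 and 3.23 CPM in mutant 3 d dark. Library 3 carried much of its change of 4.06 ± 0.70 (adjusted p = 8.2e-05): without it the change was 2.23 (adjusted p = 0.00355). NDA1 (AT1G07180, chromosome 1, 2204320 to 2206934), an alternative NAD(P)H dehydrogenase of the inner mitochondrial membrane that light is known to induce, had 13.8, 22.4 and 17.6 CPM in mutant 4 d light, 4.37, 3.14 and 4.92 CPM in mutant 4 d dark and 0.704, 1.69 and 1.84 CPM in mutant 3 d dark. Its groups stood apart at every step, and it rose by 3.64 ± 0.36 (adjusted p = 5.29e-08) in the main comparison and by 2.1 (adjusted p = 0.000233) in light over dark at 4 d. The remaining rises named by the rule were the CHCH-family gene AT5G09570 (4.00 ± 0.46), the cytochromes P450 CYP76C2 (3.69 ± 0.50) and CYP71A22 (3.43 ± 0.59), the glycosyltransferase gene UGT84A3 (3.63 ± 0.48) and the late embryogenesis abundant gene AT3G53040 (3.41 ± 0.98). AT3G53040 alone of these lost its call when 1 library was left out, at 2.56 (adjusted p = 0.071) without mutant 4 d light library 2. It stood at 94, 257 and 169 CPM in mutant 4 d dark.

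Among the largest falls were genes of plastid, oil body and lipid transfer proteins. The B-box zinc finger gene bbx23 (AT4G10240), whose protein promotes seedling photomorphogenesis, had 1.85, 0.848 and 0.338 CPM in mutant 4 d light, against 25.4, 14.9 and 10.9 CPM in mutant 3 d dark. All 3 light libraries lay below the dark ones, with a change of -4.15 ± 0.61 (adjusted p = 1.16e-05). In mutant 4 d dark seedlings bbx23 still had 26.8, 12.9 and 16.2 CPM. OLEO3 (AT5G51210), an oleosin that coats seed oil bodies, had 6.72, 1.21 and 1.6 CPM in mutant 4 d light, 19, 12.3 and 11.2 CPM in mutant 4 d dark and 43.8, 38.7 and 40.2 CPM in mutant 3 d dark. The 3 groups did not overlap, and the main change was -3.80 ± 0.50 (adjusted p = 2.98e-06). The lipid transfer protein gene LTP2 (AT2G38530) had 1140, 733 and 877 CPM in mutant 4 d light, against 7350, 7170 and 5930 CPM in mutant 3 d dark. LTP2 was lower in every light library, with a change of -2.89 ± 0.35 (adjusted p = 1.07e-06). The other falls named by the rule were the peptide gene CLE5 (-3.81 ± 0.69), PCC1 (-3.75 ± 0.50), AT5G22580 (-3.39 ± 0.40), the UDP-glycosyltransferase gene AT1G01390 (-2.95 ± 0.39), the plastid outer envelope protein gene OEP6 (-2.88 ± 0.46), PORA and PORB.

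**Figure D1:**
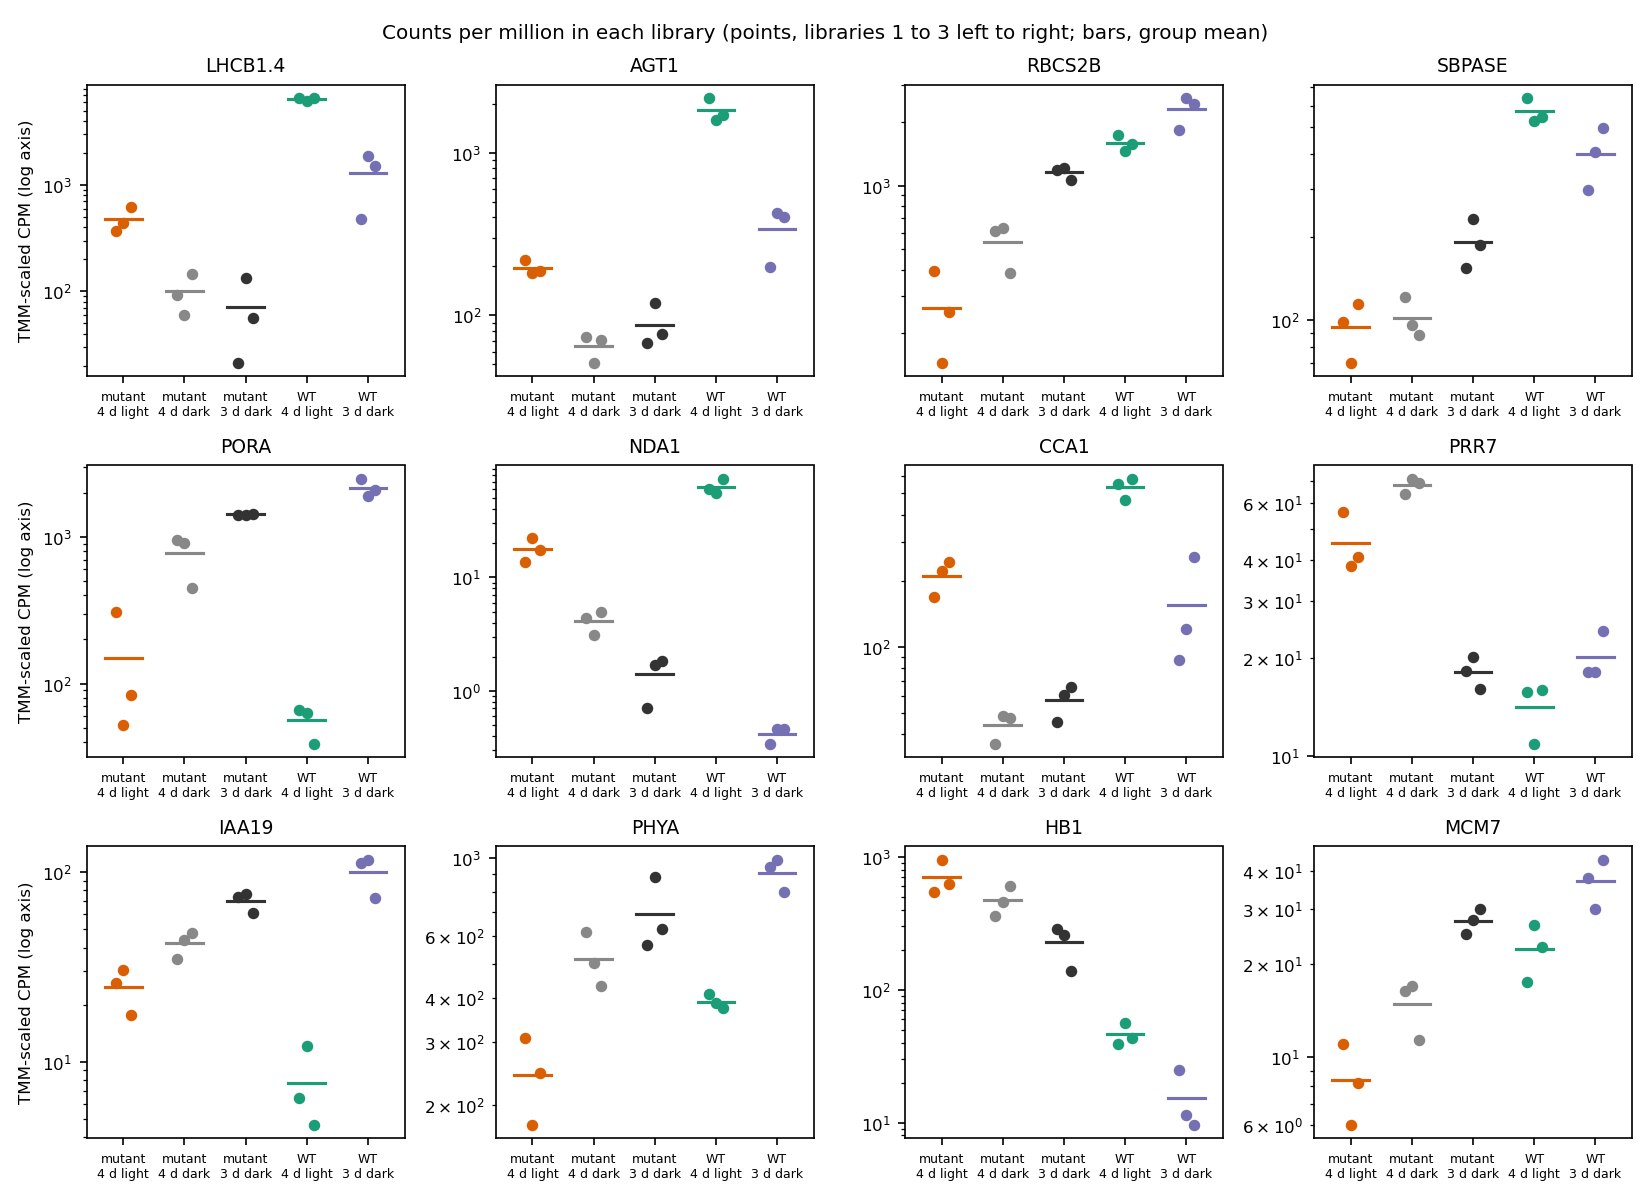
Levels of 12 genes in the 15 libraries of 5 groups (CPM, TMM-scaled, log axis); each point is a library and each bar a group mean. LHCB1.4, AGT1, NDA1, CCA1, PRR7 and HB1 lie higher in mutant 4 d light than in mutant 3 d dark, while RBCS2B, SBPASE, PORA, IAA19, PHYA and MCM7 lie lower.

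Photosynthesis genes were called in both directions. Of the 18 light-harvesting antenna genes, whose proteins bind chlorophyll around the photosystems, 5 were called higher and 0 lower, with a median of 0.56, against 17.3% and 16.7% of all tested genes. The 5 were LHCB1.1, LHCB1.4, LHCB1.5, LHCB2.1 and LHCB2.2, all of the major photosystem II antenna, and 4 to 7 were called when 1 library was left out. LHCB1.4 (AT2G34430, chromosome 2, 14524756 to 14525763) had 370, 437 and 624 CPM in mutant 4 d light, against 21.2, 135 and 56.7 CPM in mutant 3 d dark. LHCB1.4 was higher in every light library, by 2.74 ± 0.70 (adjusted p = 0.00328). LHCB2.1 (AT2G05100) had 406, 518 and 682 CPM in mutant 4 d light, against 72.2, 200 and 99.1 CPM in mutant 3 d dark, a change of 2.11 ± 0.48 (adjusted p = 0.00126) with no overlap. Summed over the list, the antenna genes reached 14100 to 22800 CPM in mutant 4 d light and 7410 to 15800 CPM in mutant 3 d dark, with 89600 to 92900 CPM in wild type 4 d light and 22100 to 50300 CPM in wild type 3 d dark. Reads of one of the near-identical LHCB1 genes may be counted for another.

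The nuclear photosystem and electron transport genes gave 0 calls in either direction among 28 (median -0.03) in edgeR and 0 in DESeq2, with 2 at an unadjusted p under 0.05. Their 4 d light sums of 8200 to 11800 CPM overlapped the 3 d dark sums of 8410 to 12000 CPM in the mutant. Between light and dark at 4 d, 5 of the 28 were called higher (background 1.62%), and between 4 d and 3 d in the dark 11 were called lower (background 12.7%). The medians of these comparisons were 0.75 and -0.84.

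Calvin cycle genes, which encode the enzymes of carbon fixation, gave 4 falls among 20 (RBCS2B, PGK1, SBPASE and TPI) and 0 rises, with a median of -0.48; the share that fell is near the 16.7% of all tested genes. RBCS2B (AT5G38420), a small subunit gene of Rubisco, had 394, 145 and 254 CPM in mutant 4 d light, against 1190, 1210 and 1060 CPM in mutant 3 d dark. Light libraries all lay below the 3 d dark ones, with a change of -2.13 ± 0.42 (adjusted p = 0.000282), and reads of the similar small subunit genes may be shared. TPI (AT2G21170), plastid triose phosphate isomerase, had 178, 188 and 201 CPM in mutant 4 d light, against 288, 300 and 290 CPM in mutant 3 d dark, a change of -0.63 ± 0.13 (adjusted p = 0.000524) with no overlap. SBPASE (AT3G55800), the sedoheptulose bisphosphatase, changed by -1.03 ± 0.32 (adjusted p = 0.0119), but by -0.86 without mutant 4 d light library 2 (adjusted p = 0.0836) or mutant 3 d dark library 2 (adjusted p = 0.0607). Without either of these libraries 2 members were called lower. Between 4 d and 3 d in the dark, 15 of the 20 fell (median -0.96), and between light and dark at 4 d the median was 0.47 with 0 called by edgeR or DESeq2 and 10 at an unadjusted p under 0.05.

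Photorespiration genes, which salvage the product of Rubisco's oxygenase reaction, gave 2 rises among 15, the peroxisomal aminotransferases AGT1 and GGT1, and 3 falls, GOX2, GLDT and GDCH. Both shares are near those of all tested genes, 17.3% higher and 16.7% lower, so only the single genes are described. AGT1 (AT2G13360) had 219, 181 and 188 CPM in mutant 4 d light, against 67.6, 119 and 77 CPM in mutant 3 d dark. All 3 light libraries lay above the dark ones, by 1.15 ± 0.29 (adjusted p = 0.00286), and GGT1 (AT1G23310) by 1.13 ± 0.26 (adjusted p = 0.00116). GDCH (AT2G35370), the H protein of the mitochondrial glycine decarboxylase, had 68.6, 63.7 and 85.9 CPM in mutant 4 d light, against 161, 156 and 164 CPM in mutant 3 d dark. The change was -1.14 ± 0.25 (adjusted p = 0.000772), with every light library below every 3 d dark one. The 89.2, 66.1 and 68.8 CPM of GDCH in mutant 4 d dark overlapped the light values. The list's median was -0.27, and 2 members were called lower without mutant 4 d light library 2.

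**Figure D2:**
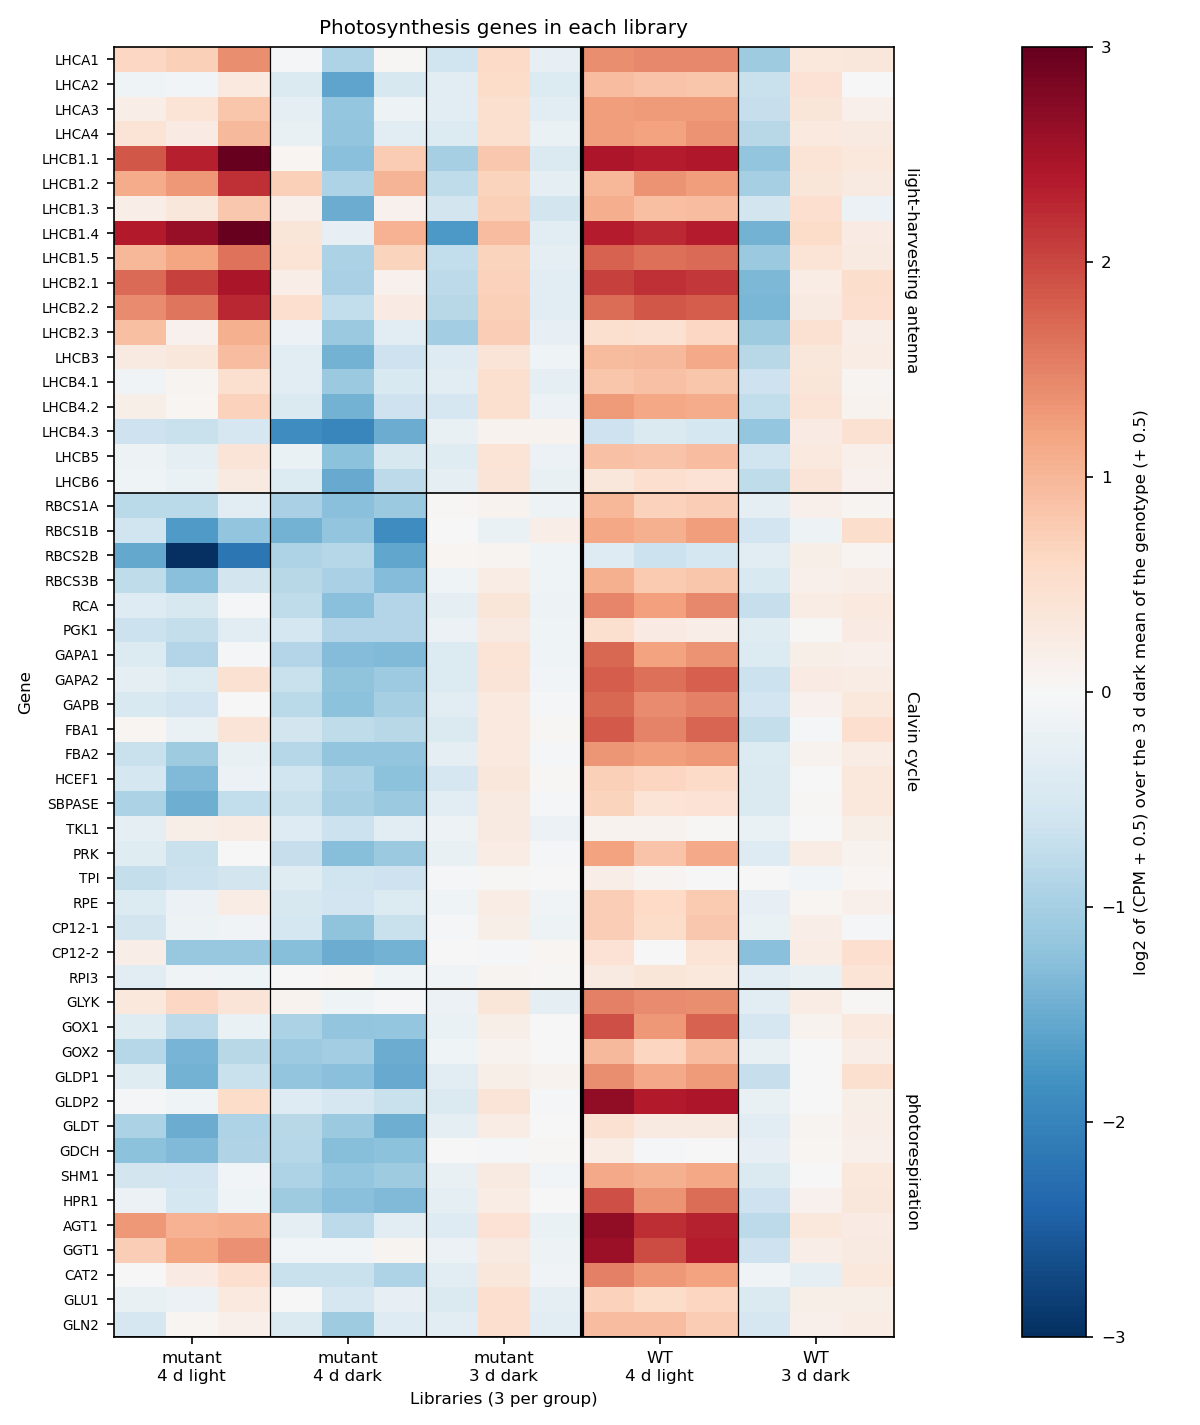
Heatmap of antenna, Calvin cycle and photorespiration genes, 1 row per gene and 1 column per library; colour is the log2 of (CPM + 0.5) over the mean of that genotype's 3 d dark libraries. The mutant 4 d light columns are above their dark level mainly for LHCB1 and LHCB2 genes, AGT1 and GGT1, while the wild-type 4 d light columns are above it across most rows.

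Chlorophyll synthesis genes mostly fell: 12 of 21 were called lower and 2 higher (HEMA1 and CAO), against 16.7% and 17.3% of all tested genes. Their median was -0.71. With 1 library left out, 8 to 13 were called lower, and 0 were called higher without mutant 4 d light library 3 or mutant 3 d dark library 1. PORA (AT5G54190, chromosome 5, 21990912 to 21992812), which reduces protochlorophyllide on first exposure to light, had 309, 52.3 and 84.2 CPM in mutant 4 d light, 951, 915 and 449 CPM in mutant 4 d dark and 1410, 1420 and 1440 CPM in mutant 3 d dark. Library 1 kept the most PORA among the light libraries, all 3 lay below all dark libraries, and the main change was -3.26 ± 0.60 (adjusted p = 0.000178). PORB (AT4G27440) had 365, 79.6 and 130 CPM in mutant 4 d light, against 1680, 1450 and 1770 CPM in mutant 3 d dark, a change of -3.09 ± 0.50 (adjusted p = 3.64e-05) with no overlap. HEMA1 (AT1G58290), glutamyl-tRNA reductase at the head of the pathway, had 175, 203 and 258 CPM in mutant 4 d light, 80.9, 58.5 and 73.7 CPM in mutant 4 d dark and 96.7, 154 and 113 CPM in mutant 3 d dark. Light libraries were all higher, by 0.81 ± 0.24 (adjusted p = 0.0104) over 3 d dark, but the change was 0.64 (adjusted p = 0.0643) without mutant 4 d light library 3 and 0.67 (adjusted p = 0.0645) without mutant 3 d dark library 1. Between 4 d and 3 d in the dark 17 of the 21 fell, and between light and dark at 4 d 5 rose and 2 fell.

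The plastid sigma factors direct the bacterial-type RNA polymerase to chloroplast genes. Of 6, SIG2, SIG4 and SIG6 fell and SIG5 rose, with a median of -0.52, against 16.7% and 17.3% of all tested genes. SIG4 (AT5G13730) had 7.18, 3.45 and 4.73 CPM in mutant 4 d light, against 17.1, 16.4 and 19.7 CPM in mutant 3 d dark. All 3 light libraries lay below the 3 d dark ones, with a change of -1.83 ± 0.34 (adjusted p = 0.000152). SIG5 was called at 1.26 ± 0.49 (adjusted p = 0.0463), and the call held only when mutant 3 d dark library 3 was the one left out. Some genes encoded in the chloroplast varied widely within a group, such as ATCG00040 at 552, 35.4 and 972 CPM in mutant 4 d light. Of 133 such genes, 105 were tested, 4 fell (ATCG00820, ATCG00390, ATCG01310 and ATCG00400) and 0 rose, with a median of -0.30. Of all tested genes, 16.7% fell and 17.3% rose. The 4 chloroplast calls became 0 without mutant 4 d light library 2 or mutant 3 d dark library 1 and 1 without mutant 4 d light library 1. No mitochondrion-encoded gene was called by edgeR among 48 tested of 146 (median -0.19), with 0 at an unadjusted p under 0.05 and 0 called by DESeq2.

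The stretches before 3 of these genes are shown because they fell or rose strongly and hold a letter pattern that light-regulated promoters are known for. Each is the 250 bases before the outermost annotated start (TAIR10 model or RefSeq gene, read from TAIR10.1), 5′ to 3′ on the gene's strand. The patterns searched, each on both strands, were the G-box with the letters CACGTG and the GATA motif. Capitals mark the matches. The GATA motif has the letters GATAAG, and shows as its complement where it lies on the other strand. RBCS2B lies on the minus strand at chr5:15382072-15382321, PORA on the minus strand at chr5:21992815-21993064, and LHY, a clock gene described below, on the minus strand at chr1:37872-38121.
RBCS2B: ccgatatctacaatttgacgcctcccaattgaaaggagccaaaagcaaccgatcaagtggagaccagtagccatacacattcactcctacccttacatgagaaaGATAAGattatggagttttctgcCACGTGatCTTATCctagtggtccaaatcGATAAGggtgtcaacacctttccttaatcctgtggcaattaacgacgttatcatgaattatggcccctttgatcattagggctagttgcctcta
PORA: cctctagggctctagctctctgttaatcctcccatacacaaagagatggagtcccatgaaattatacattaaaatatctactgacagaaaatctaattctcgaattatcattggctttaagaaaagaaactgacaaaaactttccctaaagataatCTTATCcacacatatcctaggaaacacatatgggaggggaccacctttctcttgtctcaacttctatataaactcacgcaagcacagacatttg
LHY: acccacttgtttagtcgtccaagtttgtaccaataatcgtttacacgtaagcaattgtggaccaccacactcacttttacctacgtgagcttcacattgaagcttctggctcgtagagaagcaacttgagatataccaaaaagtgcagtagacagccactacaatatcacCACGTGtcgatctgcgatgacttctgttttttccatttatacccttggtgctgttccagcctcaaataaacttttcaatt
The RBCS2B window held 1 G-box and 3 GATA motifs, PORA 1 GATA motif and LHY 1 G-box, while that of LHCB1.4 held neither. Of all 32398 windows, 5.9% held a G-box and 12.6% a GATA motif, and of the 22432 windows of tested genes 7.24% and 12.4%. Genes called at least 4-fold higher had a G-box in 35 of 404 windows (8.66%) and a GATA motif in 61 (15.1%), and those called at least 4-fold lower in 23 (9.75%) and 33 of 236. Antenna windows held a G-box in 4 of 18 (22.2%) and a GATA motif in 4 (22.2%), and Calvin cycle windows in 3 and 4 of 20. A match describes the letters only.

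Light signalling genes include photoreceptors, the PIF factors that keep seedlings dark-like, and the factors that drive greening. Of 29, 4 rose (PIF5, PIF7, HYH and SPA1) and 11 fell, with a median of -0.35, against 17.3% and 16.7% of all tested genes. The 11 became 6 without mutant 4 d light library 2 or mutant 3 d dark library 2. PHYA (AT1G09570), the far-red photoreceptor, had 308, 175 and 245 CPM in mutant 4 d light, 617, 504 and 434 CPM in mutant 4 d dark and 568, 883 and 628 CPM in mutant 3 d dark. Its light libraries all lay below every dark library, and the main change was -1.51 ± 0.21 (adjusted p = 6.24e-06). PIF7 (AT5G61270) had 5.1, 13.8 and 9.96 CPM in mutant 4 d light, against 2.05, 1.32 and 2.18 CPM in mutant 3 d dark. The light libraries were all above the 3 d dark ones, by 2.40 ± 0.42 (adjusted p = 9.18e-05). GNC (AT5G56860), a GATA factor that promotes chloroplast development, changed by -1.3 ± 0.20 (adjusted p = 1.97e-05). ELIP1 (AT3G22840), an early light-induced protein of thylakoids, had 158, 57.5 and 80.8 CPM in mutant 4 d light, 59.1, 30.9 and 55.2 CPM in mutant 4 d dark and 529, 472 and 548 CPM in mutant 3 d dark. Both 4 d groups were below the 3 d group and overlapped each other, and the main change was -2.39 ± 0.58 (adjusted p = 0.00228).

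Clock genes of the morning were among those that rose. Of 14 clock genes, 5 rose (CCA1, LHY, PRR9, PRR7 and RVE8) and 2 fell (PRR3 and LUX), against 17.3% and 16.7% of all tested genes. The median was 0.59, and 1 fell without mutant 4 d light library 2. CCA1 (AT2G46830), a morning factor of the core loop, had 169, 221 and 242 CPM in mutant 4 d light, 36.1, 48.2 and 47.3 CPM in mutant 4 d dark and 45.6, 60.5 and 65.5 CPM in mutant 3 d dark. Every light library was above every dark one, by 1.88 ± 0.29 (adjusted p = 1.7e-05) over 3 d dark. LHY (AT1G01060), its close relative, had 361, 466 and 514 CPM in mutant 4 d light, against 110, 149 and 150 CPM in mutant 3 d dark. LHY rose by 1.71 ± 0.30 (adjusted p = 8.78e-05) and RVE8 (AT3G09600) by 1.46 ± 0.27 (adjusted p = 0.000158), both without overlap. PRR7 (AT5G02810), a repressor of CCA1 and LHY, had 56.1, 38.3 and 40.8 CPM in mutant 4 d light, 63.8, 71.2 and 69.2 CPM in mutant 4 d dark and 18.3, 20.2 and 16.1 CPM in mutant 3 d dark. It was high in both 4 d groups and low at 3 d, with a main change of 1.3 ± 0.22 (adjusted p = 6.73e-05). The labels do not give the hour of harvest, and its part in these values was not tested.

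Elongation genes, of the auxin response and of wall loosening, gave 2 rises (EXPA1 and XTH22) and 4 falls (IAA19, EXPA8, EXPA11 and XTH15) among 24, with a median of -0.36; neither share is above that of all tested genes. IAA19 (AT3G15540), an auxin-induced repressor of auxin signalling, had 26, 30.6 and 17.6 CPM in mutant 4 d light, against 74.2, 76.2 and 60.6 CPM in mutant 3 d dark. Light libraries all lay below the dark ones, with a change of -1.50 ± 0.25 (adjusted p = 4.01e-05). The expansin gene EXPA11 (AT1G20190) had 38.5, 36.6 and 41.5 CPM in mutant 4 d light, against 74.3, 91.6 and 90.2 CPM in mutant 3 d dark, a change of -1.14 ± 0.23 (adjusted p = 0.00037) with no overlap. The 4 falls became 2 without mutant 4 d light library 2 or without mutant 3 d dark library 2 or 3. The 2 rises became 0 without mutant 4 d light library 2 or without mutant 3 d dark library 1 or 3, and 1 without mutant 4 d light library 3.

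Seed reserve genes were described by a list that does not hold OLEO3, the oleosin gene among the largest falls (-3.80, adjusted p = 2.98e-06). None of the 11 tested seed storage and oil body genes on the list (of 14) was called by edgeR or DESeq2, with 1 at an unadjusted p under 0.05; their summed level was 14.8 to 18.4 CPM in mutant 4 d light and 13.3 to 17 CPM in mutant 3 d dark. Of 22 genes of peroxisomal beta-oxidation, which breaks down fatty acids, and of the glyoxylate cycle and gluconeogenesis, which turn the product into sugar, 6 fell and 1 rose (CSY2), with a median of -0.26. Beside them, 16.7% of all tested genes fell and 17.3% rose. PCK1 (AT4G37870), the phosphoenolpyruvate carboxykinase of gluconeogenesis, had 428, 206 and 260 CPM in mutant 4 d light, against 560, 743 and 722 CPM in mutant 3 d dark. PCK1 was lower in every light library, with a change of -1.18 ± 0.32 (adjusted p = 0.00459). The thiolase gene KAT5 (AT5G48880) changed by -1.1 ± 0.31 (adjusted p = 0.00673). Without mutant 4 d light library 2 the 6 falls became 3 and the rise was not called.

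Starch genes fell broadly, with 14 of 28 called lower and 2 higher (GPT1 and BAM3), against 16.7% and 17.3% of all tested genes. The median was -0.63, and 12 to 16 were called lower with 1 library left out. The falls took in synthesis (SS2, SS4, SBE2.1, SBE2.2, APL3) and breakdown (SEX1, PWD, SEX4, DPE1, MEX1, LDA). APL3 (AT4G39210), a large subunit of ADP-glucose pyrophosphorylase, had 10.1, 8.3 and 9.96 CPM in mutant 4 d light, 42.9, 30.7 and 27.7 CPM in mutant 4 d dark and 29.9, 54.8 and 43.6 CPM in mutant 3 d dark. All light libraries were below all dark libraries, with a main change of -2.19 ± 0.33 (adjusted p = 1.57e-05). PWD (AT5G26570), which phosphorylates starch for breakdown, had 41.7, 23.8 and 30.5 CPM in mutant 4 d light, against 76.5, 102 and 93.1 CPM in mutant 3 d dark. All 3 light libraries lay below the dark ones, with a change of -1.50 ± 0.23 (adjusted p = 2.04e-05). BAM3 (AT4G17090), a plastid beta-amylase, had 25.7, 31.1 and 56 CPM in mutant 4 d light, against 7.69, 5.81 and 10.3 CPM in mutant 3 d dark, and was higher in every light library, by 2.25 ± 0.62 (adjusted p = 0.00624).

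Of 25 sugar transport and sucrose metabolism genes tested, 4 rose (SWEET17, SUS1, SUS3 and SUS4) and 2 fell (SUC2 and SPS4F), with a median of -0.09, and neither share is above that of all tested genes. SUS3 (AT4G02280), a sucrose synthase, had 44.3, 75 and 52.4 CPM in mutant 4 d light, against 16.1, 19.5 and 18.6 CPM in mutant 3 d dark. Every light library was above every 3 d dark one, by 1.67 ± 0.27 (adjusted p = 4.21e-05). The 51.6, 43.5 and 42.1 CPM of SUS3 in mutant 4 d dark overlapped the light values. SUS3 is the one rise of the 4 that was called without mutant 4 d light library 1. SUC2 (AT1G22710), which loads sucrose into the phloem, had 71.2, 62.6 and 68.6 CPM in mutant 4 d light, against 95.9, 123 and 107 CPM in mutant 3 d dark, a change of -0.68 ± 0.17 (adjusted p = 0.00255) with no overlap. Without mutant 3 d dark library 3 there were 2 rises, and the 2 falls became 1 without mutant 4 d light library 2 or 3 or mutant 3 d dark library 1 or 3.

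Dark-inducible starvation markers, genes that respond to SnRK1 activity and sugar shortage in Arabidopsis, gave 4 rises (EXL2, TPS10, TPS11 and DRM2) and 0 falls among 17, with a median of 0.25. The share that rose is near the 17.3% of all tested genes, of which 16.7% fell. TPS11 (AT2G18700), of the trehalose phosphate synthase family, had 86.5, 81.8 and 93.7 CPM in mutant 4 d light, against 43, 66.5 and 45.7 CPM in mutant 3 d dark. All 3 light libraries lay above the 3 d dark ones, by 0.75 ± 0.22 (adjusted p = 0.00762). The 87.5, 95.7 and 86.7 CPM of TPS11 in mutant 4 d dark overlapped the light values. DRM2 (AT2G33830), dormancy-associated, had 978, 158 and 177 CPM in mutant 4 d light, against 158, 131 and 99.2 CPM in mutant 3 d dark. Library 1 held most of the signal: the change of 1.76 ± 0.51 (adjusted p = 0.00833) was 0.37 (adjusted p = 0.542) without it. ASN1 (AT3G47340), the asparagine synthetase known as DIN6, had 204, 410 and 230 CPM in mutant 4 d light, against 200, 560 and 131 CPM in mutant 3 d dark, overlapped and was not called, at -0.08 ± 0.46 (adjusted p = 0.915). Without mutant 4 d light library 1 there were 2 rises in the list.

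Amino acid breakdown genes were called only higher by edgeR in the main comparison. Of 22, 7 rose and 0 fell, with a median of 0.49, against 17.3% and 16.7% of all tested genes. The 7 became 4 without mutant 4 d light library 2 or mutant 3 d dark library 3, and 11 without mutant 3 d dark library 2. HPPD (AT1G06570), of tyrosine breakdown, had 74.2, 98.3 and 57.3 CPM in mutant 4 d light, against 21.6, 35.4 and 22.1 CPM in mutant 3 d dark. The light libraries were the higher ones, without overlap, by 1.54 ± 0.27 (adjusted p = 8.92e-05). The glutamate dehydrogenase gene GDH1 (AT5G18170) had 86.9, 62.2 and 42 CPM in mutant 4 d light, against 36.4, 30.3 and 22.7 CPM in mutant 3 d dark, a change of 1.09 ± 0.23 (adjusted p = 0.000673) with no overlap. NIA2 (AT1G37130), the main nitrate reductase, had 1270, 1950 and 2020 CPM in mutant 4 d light, 1130, 1430 and 1250 CPM in mutant 4 d dark and 474, 692 and 509 CPM in mutant 3 d dark. Both 4 d groups overlapped each other above the 3 d group, and the main change was 1.65 ± 0.26 (adjusted p = 2.34e-05). Of the 8 nitrogen assimilation genes 2 rose (NIA1 and NIA2) and 1 fell (GLN1;3), shares near the 17.3% and 16.7% of all tested genes. NIA1 was not called without mutant 4 d light library 2 or mutant 3 d dark library 3, nor GLN1;3 without mutant 4 d light library 1.

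The bZIP group C and S1 factors pair with each other and act downstream of SnRK1. Of 9, 4 rose (bZIP1, bZIP10, bZIP11 and bZIP25) and 0 fell, with a median of 0.33, against 17.3% and 16.7% of all tested genes. bZIP11 (AT4G34590) had 68.6, 162 and 114 CPM in mutant 4 d light, 57.7, 43.9 and 68.8 CPM in mutant 4 d dark and 26.5, 22.6 and 31.4 CPM in mutant 3 d dark. It was higher in every light library than at 3 d dark, by 2.1 ± 0.39 (adjusted p = 0.0002), and the lowest light library overlapped the highest 4 d dark library. bZIP63 (AT5G28770), which SnRK1 phosphorylates in Arabidopsis, had 33.3, 26.6 and 26.9 CPM in mutant 4 d light, against 31.7, 31 and 24.3 CPM in mutant 3 d dark, overlapped and was not called, at -0.01 ± 0.16 (adjusted p = 0.985). Of the 4 rises, 2 were called without mutant 4 d light library 1 or mutant 3 d dark library 3.

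Autophagy genes, whose products recycle cell contents, rose in 14 of 28 cases and fell in 0, against 17.3% and 16.7% of all tested genes. Their median was 0.41. With 1 library left out the rises numbered 7 (without mutant 4 d light library 2), 8 (without mutant 3 d dark library 3), 9 (without mutant 4 d light library 3) and 12 to 14 otherwise. ATG8b (AT4G04620), a ubiquitin-like protein of the autophagosome membrane, had 72.4, 149 and 89.1 CPM in mutant 4 d light, 69.5, 76.3 and 101 CPM in mutant 4 d dark and 33.7, 27.3 and 22.6 CPM in mutant 3 d dark. The 4 d groups overlapped each other and both lay above 3 d dark, with a main change of 1.90 ± 0.24 (adjusted p = 2.1e-06). ATG18a (AT3G62770) had 45, 59.1 and 59.3 CPM in mutant 4 d light, against 31.3, 35.7 and 27.3 CPM in mutant 3 d dark, a change of 0.79 ± 0.13 (adjusted p = 2.6e-05) with no overlap. Between 4 d and 3 d in the dark 9 of the 28 rose, and between light and dark at 4 d edgeR and DESeq2 called 0, with 3 at an unadjusted p under 0.05.

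Senescence and chlorophyll breakdown genes rose in 9 of 15 cases and fell in 1 (WRKY53), against 17.3% and 16.7% of all tested genes. The median was 0.94, and 6 to 9 rises were called with 1 library left out, the fewest without mutant 4 d light library 2. PPH (AT5G13800), pheophytinase of chlorophyll breakdown, had 76.8, 128 and 126 CPM in mutant 4 d light, 95.4, 131 and 128 CPM in mutant 4 d dark and 50.8, 54.1 and 52.2 CPM in mutant 3 d dark. Both 4 d groups lay above 3 d dark and overlapped each other, with a main change of 1.07 ± 0.16 (adjusted p = 1.48e-05). WRKY6 (AT1G62300), a senescence-associated factor, had 175, 234 and 206 CPM in mutant 4 d light, against 85.1, 76.2 and 76.4 CPM in mutant 3 d dark. Every light library was above every 3 d dark one, by 1.37 ± 0.22 (adjusted p = 2.94e-05). The 161, 192 and 163 CPM of WRKY6 in mutant 4 d dark overlapped the light values. SAG13 (AT2G29350) had 3.13, 4 and 10.5 CPM in mutant 4 d light, against 0.411, 0 and 0.695 CPM in mutant 3 d dark, and changed by 4.05 ± 0.77 (adjusted p = 0.000228). SAG12, the marker of advanced leaf senescence, was at 0 in all 6 libraries. The list's median was 1.06 between 4 d and 3 d in the dark and -0.05 between light and dark at 4 d.

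Hypoxia response genes, which switch on fermentation when oxygen is low, rose in 10 of 12 cases and fell in 0, with a median of 1.33. Of all tested genes, 17.3% rose and 16.7% fell. The summed level of the hypoxia genes was 1280 to 1700 CPM in mutant 4 d light, 794 to 1060 CPM in mutant 4 d dark and 424 to 688 CPM in mutant 3 d dark. HB1 (AT2G16060), a nitric-oxide-scavenging phytoglobin, had 540, 950 and 626 CPM in mutant 4 d light, against 285, 260 and 139 CPM in mutant 3 d dark. All 3 light libraries lay above the 3 d dark ones, by 1.63 ± 0.42 (adjusted p = 0.00359). LBD41 (AT3G02550), a hypoxia-induced transcription factor, had 85.5, 87.8 and 63.5 CPM in mutant 4 d light, against 31.5, 21.8 and 17.6 CPM in mutant 3 d dark, a change of 1.74 ± 0.28 (adjusted p = 3.31e-05) with no overlap. ALAAT1 (AT1G17290), alanine aminotransferase, changed by 0.98 ± 0.15 (adjusted p = 1.31e-05). ADH1 (AT1G77120), alcohol dehydrogenase, had 284, 91.5 and 89.7 CPM in mutant 4 d light, against 56.1, 75.9 and 45.8 CPM in mutant 3 d dark. Library 1 again stood highest, and the change of 1.38 ± 0.51 (adjusted p = 0.034) was 0.61 (adjusted p = 0.381) without it, 1.34 (adjusted p = 0.0872) without mutant 3 d dark library 1 and 1.23 (adjusted p = 0.126) without mutant 3 d dark library 3. Without 4 d light library 1 the list had 7 rises.

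Genes of the ER unfolded protein response gave 3 rises among 17 (bZIP28, bZIP60 and NAC103), with a median of 0.30, a share near that of all tested genes. NAC103 (AT5G64060) had 4.75, 15.4 and 9.96 CPM in mutant 4 d light, 11.1, 20.5 and 23.3 CPM in mutant 4 d dark and 1.53, 2.65 and 2.88 CPM in mutant 3 d dark. It was higher in both 4 d groups, by 2.1 ± 0.47 (adjusted p = 0.00096) in light, and without mutant 4 d light library 2 or mutant 3 d dark library 3 the list had 2 rises. Of 22 abscisic acid genes tested, 8 rose and 0 fell, with a median of 0.42, against 17.3% and 16.7% of all tested genes. ABA1 (AT5G67030), zeaxanthin epoxidase at the start of the hormone's synthesis, had 47.9, 29.1 and 41.8 CPM in mutant 4 d light, against 12.6, 21.1 and 19.7 CPM in mutant 3 d dark. The light libraries were the higher ones, without overlap, by 1.15 ± 0.24 (adjusted p = 0.000512). NCED9 (AT1G78390), a 9-cis-epoxycarotenoid dioxygenase, had 6.03, 11 and 9.79 CPM in mutant 4 d light, against 3.58, 2.02 and 3.13 CPM in mutant 3 d dark, a change of 1.64 ± 0.42 (adjusted p = 0.0034) with no overlap.

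Flavonoid genes, of the pathway to sunscreen flavonols and red anthocyanins, gave 8 falls and 1 rise (TT8) among 21, with a median of 0.12. Beside them, 16.7% of all tested genes fell and 17.3% rose. Without mutant 4 d light library 2, 5 fell, and TT8 was not called without that library or mutant 3 d dark library 1 or 3. F3H (AT3G51240), flavanone hydroxylase, had 27.7, 10.7 and 21.5 CPM in mutant 4 d light, 16.6, 7.55 and 12.8 CPM in mutant 4 d dark and 74.2, 76 and 73.3 CPM in mutant 3 d dark. Both 4 d groups lay far below 3 d dark, with a main change of -1.91 ± 0.48 (adjusted p = 0.00307). The regulators PAP1 (AT1G56650) and MYB111 (AT5G49330) changed by -1.91 ± 0.43 (adjusted p = 0.00122) and -2.43 ± 0.56 (adjusted p = 0.00135). DFR (AT5G42800), the first enzyme of the anthocyanin branch, had 16.9, 10.3 and 25.2 CPM in mutant 4 d light, 1.01, 0.785 and 2.02 CPM in mutant 4 d dark and 6.57, 7.58 and 8.89 CPM in mutant 3 d dark. Its light libraries were above both dark groups, but the main change of 1.18 ± 0.61 (adjusted p = 0.14) was not called. Between 4 d and 3 d in the dark 16 of the 21 fell, and between light and dark at 4 d 8 rose and 0 fell.

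Cell cycle and DNA replication genes fell almost throughout: 24 of 29 were called lower, against a background of 16.7%, with a median of -1.31, and 1 was called higher (RNR2A). From 17 to 24 were called lower when 1 library was left out, the fewest without mutant 4 d light library 2. MCM7 (AT4G02060), of the replicative helicase, had 11, 6 and 8.19 CPM in mutant 4 d light, 16.3, 16.9 and 11.3 CPM in mutant 4 d dark and 25, 27.6 and 30 CPM in mutant 3 d dark. The 3 groups did not overlap, and the main change was -1.74 ± 0.26 (adjusted p = 1.53e-05). PCNA2 (AT2G29570), the sliding clamp, had 12.7, 9.87 and 10.2 CPM in mutant 4 d light, against 31.5, 24 and 36.3 CPM in mutant 3 d dark, a change of -1.49 ± 0.22 (adjusted p = 1.36e-05) with no overlap. RNR2A (AT3G23580), a ribonucleotide reductase subunit, was called at 0.59 ± 0.23 (adjusted p = 0.0477) with overlapping groups; leaving out mutant 4 d light library 2 or 3 or mutant 3 d dark library 1 or 2 ended that call, at adjusted p-values of 0.127 to 0.228. CYCB1;1 (AT4G37490), a mitotic cyclin also raised by DNA damage, had 8.46, 11 and 7.17 CPM in mutant 4 d light, 17.6, 28.7 and 21.2 CPM in mutant 4 d dark and 10.4, 7.14 and 9.48 CPM in mutant 3 d dark. It was higher in mutant 4 d dark than in any other library of the 3 groups and was not called in the main comparison, at -0.01 ± 0.27 (adjusted p = 0.988). Summed over the list, mutant 4 d light had 210 to 326 CPM, mutant 4 d dark 297 to 405 CPM and mutant 3 d dark 536 to 646 CPM.

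Tissue markers were mostly not called, with 17 of 27 shoot and 13 of 19 root markers in neither direction. Beside them, 16.7% of all tested genes were called lower. Of 27 tested markers of the shoot apex, leaf and stomatal lineage (of 30, with CLV3, WUS and GL1 under the filter), 9 fell and 1 rose (AN3), with a median of -0.53 and sums of 585 to 733 CPM in mutant 4 d light and 1020 to 1280 CPM in mutant 3 d dark. GRF1 (AT2G22840), a growth regulator of young leaves, had 14, 13.3 and 15.4 CPM in mutant 4 d light, against 31.2, 31.8 and 35 CPM in mutant 3 d dark. Light libraries all lay below the 3 d dark ones, with a change of -1.20 ± 0.20 (adjusted p = 4.47e-05). Of 19 root markers 6 fell and 0 rose, with a median of -0.13 and sums of 176 to 298 CPM in mutant 4 d light and 308 to 395 CPM in mutant 3 d dark. CASP2 (AT3G11550), of the root endodermis, had 7.65, 3.27 and 2.7 CPM in mutant 4 d light, against 12, 10.3 and 12.3 CPM in mutant 3 d dark, a change of -1.39 ± 0.32 (adjusted p = 0.00125) with no overlap. No marker of either list was at 0 in either group. The 9 falls became 6 and the 6 root falls 3 without mutant 4 d light library 2, the root falls also 3 without mutant 3 d dark library 3 and 4 without mutant 4 d light library 3 or mutant 3 d dark library 2. The part of tissue make-up in the other results was not tested.

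Cytosolic ribosomal protein genes gave 8 rises and 0 falls among 24, with a median of 0.39, against 17.3% and 16.7% of all tested genes. RPL10C (AT1G66580) had 689, 1440 and 1310 CPM in mutant 4 d light, against 534, 305 and 445 CPM in mutant 3 d dark. Every light library was above every 3 d dark one, by 1.42 ± 0.22 (adjusted p = 2.36e-05). The 983, 766 and 1010 CPM of RPL10C in mutant 4 d dark overlapped the light values, and its near-identical relatives may share reads. The 8 rises became 1 without mutant 4 d light library 2, 2 without mutant 3 d dark library 2, 4 without mutant 3 d dark library 3 and 12 without mutant 4 d light library 1.

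**Figure D3:**
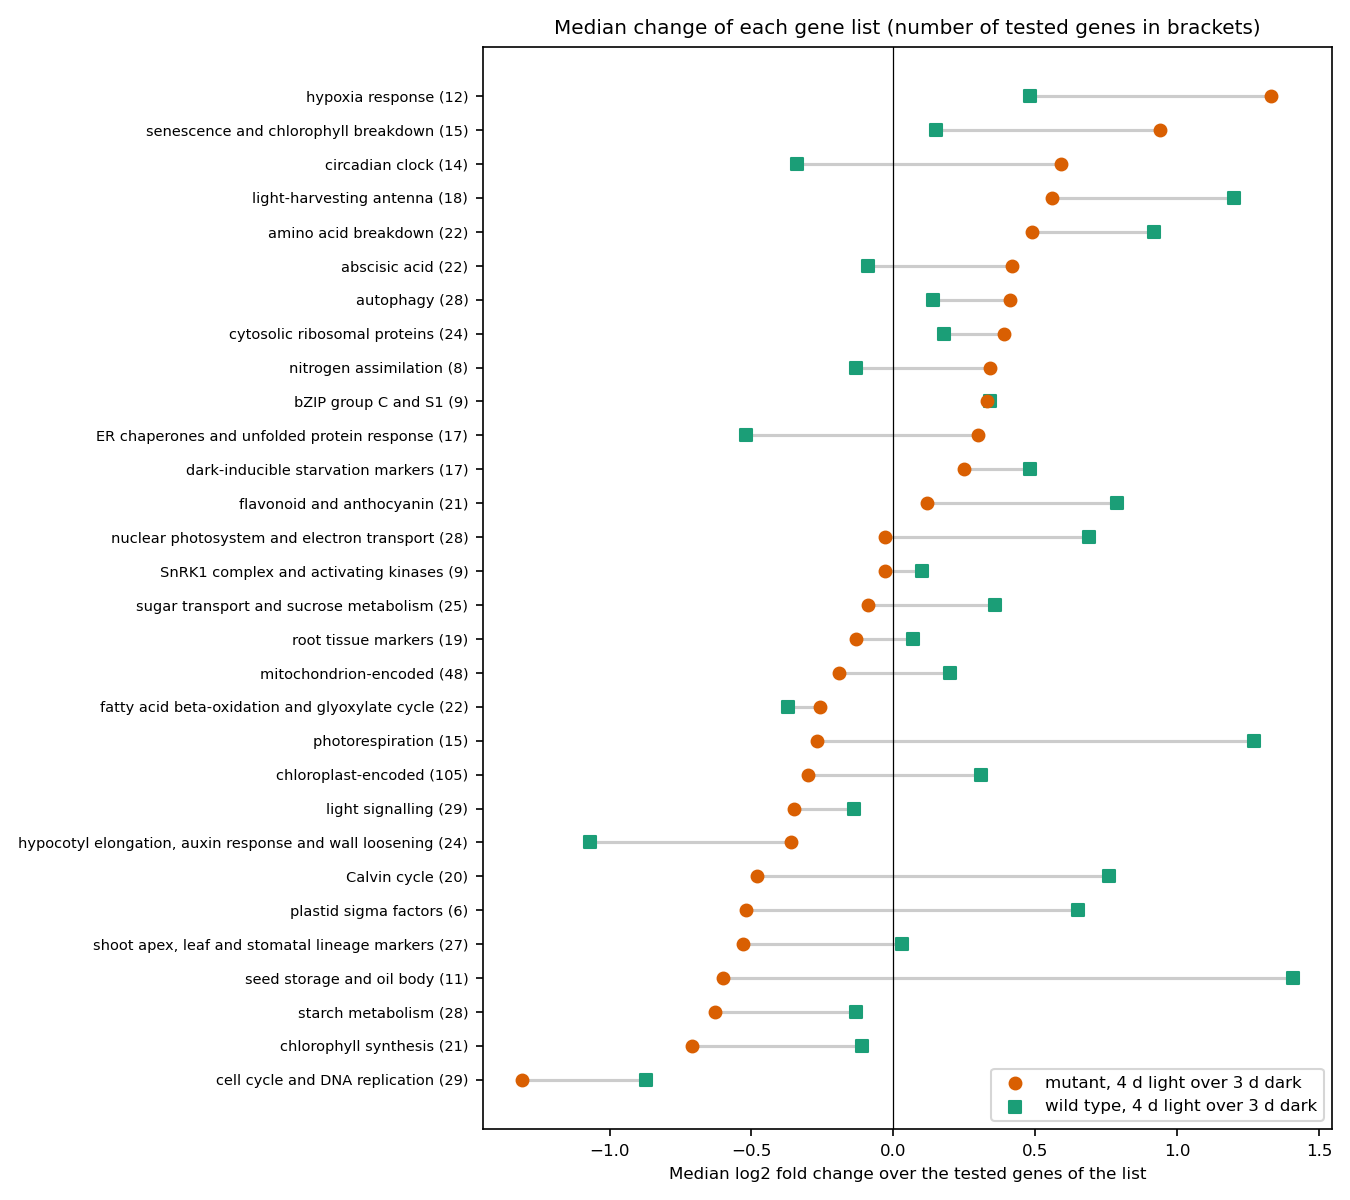
Median log2 fold change of each gene list from 3 d dark to 4 d light, with the mutant as circles and wild type as squares. The mutant lies left of wild type for Calvin cycle (-0.48 and 0.76) and photorespiration (-0.27 and 1.27) genes and right of it for hypoxia genes (1.33 and 0.48).

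The same transition was measured in wild-type seedlings, in libraries that share none with the mutant's. Wild type 4 d light and wild type 3 d dark differed in 6337 of 22586 genes (28.1%), 3189 higher (14.1%) and 3148 lower (13.9%), with a median of 0.02; with only these groups in the fit the count was 6697. Of the mutant's 3906 rises, 1310 (33.5%, and 41.1% of the wild-type rises) were also called higher in wild type, 92 (2.36%) were called lower there and 2504 (64.1%) were not called. Of its 3768 falls, 1693 (44.9%, and 53.8% of the wild-type falls) were also called lower in wild type. Across all tested genes, which are not independent replicates, the 2 sets of log2 changes had Pearson's r of 0.449 and Spearman's rho of 0.472. The change itself differed between the genotypes in 2055 genes (9.1%), 964 with a higher value in the mutant (4.27%) and 1091 with a lower one (4.83%), with a median of 0.02. That count was 1255 without mutant 4 d light library 2, 1339 without mutant 3 d dark library 2 and 1288 without wild-type 4 d light library 1.

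**Figure D4:**
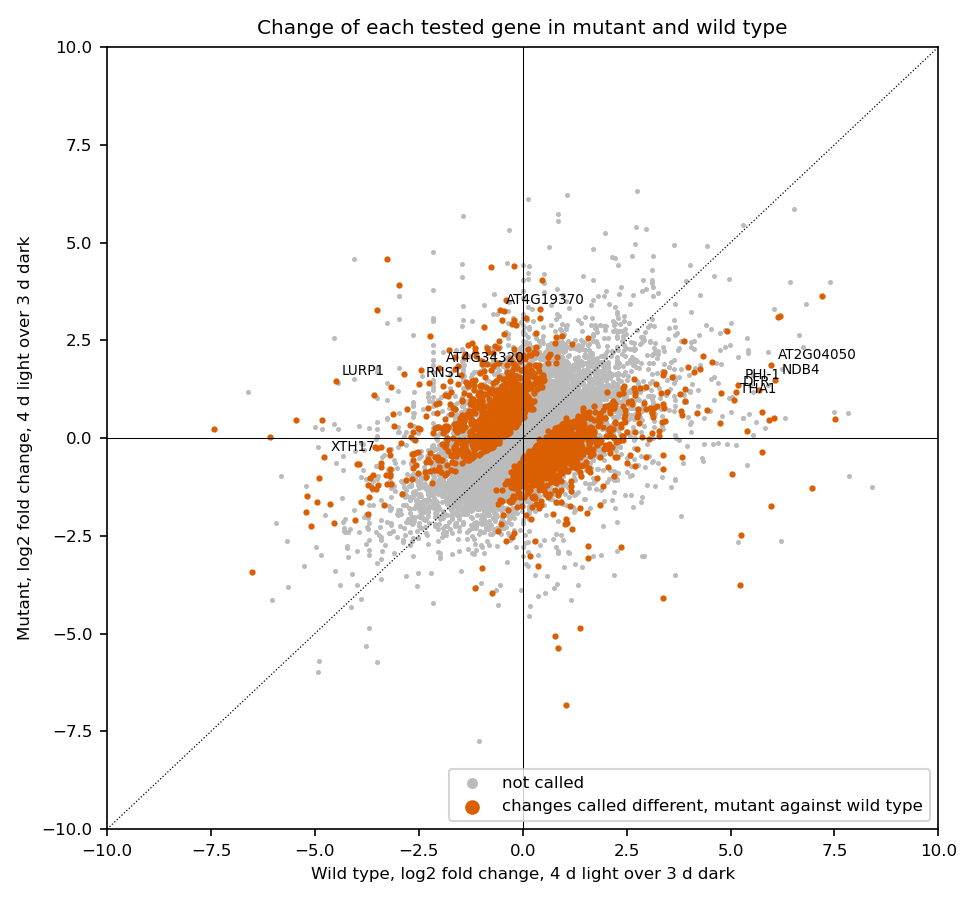
Log2 fold change from 3 d dark to 4 d light in the mutant (vertical axis) and in wild type (horizontal axis) for 22586 tested genes, 1 point each. Orange points are the 2055 genes whose change differed between genotypes, and labels mark the 5 highest and 5 lowest of the naming rule.

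The difference between the changes was called for most carbon fixation genes. The change was lower in the mutant for 14 of 20 Calvin cycle genes and 12 of 15 photorespiration genes, and higher for 0 of either, with medians of -1.49 and -1.43. Of all tested genes, the change was lower in the mutant for 4.83% and higher for 4.27%. GAPA1 (AT3G26650), plastid glyceraldehyde phosphate dehydrogenase, had 338, 242 and 426 CPM in mutant 4 d light, against 335, 594 and 407 CPM in mutant 3 d dark. In wild type it had 3760, 2630 and 2900 CPM at 4 d light, against 857, 1270 and 1250 CPM at 3 d dark. The mutant groups overlapped while the wild-type groups did not, and the changes differed by -1.87 ± 0.39 (adjusted p = 0.00249). GLDP1 (AT4G33010), a glycine decarboxylase subunit, had 135, 65 and 110 CPM in mutant 4 d light, against 139, 198 and 187 CPM in mutant 3 d dark. Wild type had 1220, 1020 and 1120 CPM at 4 d light, against 286, 463 and 643 CPM at 3 d dark. The mutant libraries were lower and the wild-type libraries higher in light, and the changes differed by -2.02 ± 0.46 (adjusted p = 0.00482). TPI and SIG6 (a sigma factor) differed by -0.74 ± 0.19 (adjusted p = 0.00992) and -1.08 ± 0.23 (adjusted p = 0.00235).

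The number of such genes depended on single libraries. The 14 Calvin cycle genes became 4 without mutant 4 d light library 2 or wild-type 3 d dark library 1, 5 without mutant 3 d dark library 2, 7 without wild-type 4 d light library 1 and 8 without wild-type 4 d light library 3. The 12 photorespiration genes became 7 without mutant 3 d dark library 2 or wild-type 3 d dark library 1, and 8 without mutant 4 d light library 2 or wild-type 4 d light library 1 . Of the 28 photosystem genes the change was lower for 3 (PETC, ATPC1 and FNR1), against 4.83% of all tested genes. The 3 became 0 without mutant 4 d light library 2, mutant 3 d dark library 2 or wild-type 3 d dark library 1. For the 18 antenna genes edgeR and DESeq2 called 0 differences, with 0 at an unadjusted p under 0.05 (median -0.45): LHCB1.4 rose by 2.32 ± 0.69 (adjusted p = 0.0108) in wild type, and the difference from the mutant was 0.43 ± 0.93 (adjusted p = 0.831), which does not show equal change.

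The rule named single genes by the size of the difference. NDA1 had 59.7, 55.2 and 74.1 CPM in wild type 4 d light, against 0.34, 0.457 and 0.462 CPM in wild type 3 d dark, and its change differed by -3.56 ± 0.56 (adjusted p = 0.000158) in the mutant. The gene was higher in light in both genotypes, and every wild-type light library was above every mutant light library. AT2G04050, a gene of the MATE efflux family, had 730, 958 and 738 CPM in mutant 4 d light and 233, 254 and 182 CPM in mutant 3 d dark, against 53.2, 81.7 and 90.4 CPM in wild type 4 d light and 1.07, 1.37 and 1.11 CPM in wild type 3 d dark. Its mutant libraries were the higher at both ages, and its change differed by -4.12 ± 0.60 (adjusted p = 6.81e-05). THA1 (AT1G08630), threonine aldolase, differed by -4.10 ± 0.82 (adjusted p = 0.0019), and by -2.21 (adjusted p = 0.0295) without mutant 3 d dark library 2, which held 64.2 CPM where the other 2 held 9.45 and 4.92. The rule also named PHI-1 at -3.83 ± 0.63 (adjusted p = 0.000253), NDB4 at -4.58 ± 1.25 (adjusted p = 0.0185) and DFR at -3.95 ± 1.28 (adjusted p = 0.0485). NDB4 had 38.9, 76.7 and 26.9 CPM in mutant 4 d light and 13.7, 23.5 and 13.4 CPM in mutant 3 d dark. In wild type it had 4.09, 3.63 and 6.58 CPM at 4 d light and 0.146, 0 and 0.0462 CPM at 3 d dark. Every mutant library was above every wild-type library of its age. The size of the NDB4 difference rests on the near-zero wild-type 3 d dark libraries. NDB4 lost its call without wild-type 4 d light library 3 (adjusted p = 0.0533) or wild-type 3 d dark library 2 (0.0668 as adjusted p) or 3 (0.0541 as adjusted p). DFR rests on wild-type 4 d light library 1, at 16.9 CPM beside 0.352 and 0.185 CPM, and was 0.47 (adjusted p = 0.92) without it.

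Among starvation and SnRK1-linked genes, bZIP63 had 144, 118 and 147 CPM in wild type 4 d light, against 36.3, 43.7 and 44.9 CPM in wild type 3 d dark, a rise of 1.71 ± 0.16 (adjusted p = 1.73e-09), and the change in the mutant was lower by -1.71 ± 0.23 (adjusted p = 2.2e-05). Its wild-type groups did not overlap, while those of the mutant did. DIN10 (AT5G20250), a raffinose synthase family gene, had 524, 536 and 620 CPM in mutant 4 d light and 441, 763 and 407 CPM in mutant 3 d dark, against 1820, 1770 and 1830 CPM in wild type 4 d light and 590, 817 and 550 CPM in wild type 3 d dark. The mutant groups overlapped, and its difference of -1.41 ± 0.34 (adjusted p = 0.00802) was -1.07 (adjusted p = 0.0521) without mutant 3 d dark library 2. ASN1 had 990, 656 and 642 CPM in wild type 4 d light, against 112, 249 and 98.2 CPM in wild type 3 d dark, and differed by -2.39 ± 0.66 (adjusted p = 0.0188). ASN1 was -1.55 (adjusted p = 0.14) without mutant 3 d dark library 2, and its call also ended without wild-type 4 d light library 1 (adjusted p = 0.0605), wild-type 3 d dark library 1 (adjusted p = 0.0566) or 3 (adjusted p = 0.0544). Of the 17 starvation markers 4 differed lower (SEN1, ASN1, DIN4 and DIN10) and 2 higher (DIN11 and EXL2), against 4.83% and 4.27% of all tested genes. The 4 became 0 without mutant 3 d dark library 2 and 2 without wild-type 4 d light library 1 or wild-type 3 d dark library 1 or 3. The 2 higher ones became 1 without any of 9 libraries.

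Differences were also called among elongation and clock genes. XTH17 (AT1G65310), a xyloglucan endotransglucosylase of wall remodelling, had 32.1, 11.7 and 8.61 CPM in mutant 4 d light and 25.2, 18.3 and 28.3 CPM in mutant 3 d dark, against 4.85, 7.27 and 4.73 CPM in wild type 4 d light and 122, 162 and 173 CPM in wild type 3 d dark. The mutant groups overlapped, the wild-type groups lay far apart, and the changes differed by 4.29 ± 0.70 (adjusted p = 0.000265). IAA19 fell in both genotypes, with 6.47, 12.1 and 4.64 CPM in wild type 4 d light, against 112, 116 and 72.7 CPM in wild type 3 d dark, and the changes differed by 2.21 ± 0.36 (adjusted p = 0.00022). In the elongation list of 24, 4 genes differed higher (IAA6, IAA19, XTH17 and XTH33) and 2 lower (EXPA2 and XTH6), against 4.27% and 4.83% of all tested genes. The median difference was 0.69, and the wild-type median was -1.07.

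PRR7 had 15.7, 10.9 and 16 CPM in wild type 4 d light, against 18.1, 18.2 and 24.3 CPM in wild type 3 d dark, and the change differed by 1.81 ± 0.32 (adjusted p = 0.000546). It was lower in light in every wild-type library and higher in light in every mutant library. PRR9 (AT2G46790) had 9.73, 4.91 and 4.39 CPM in mutant 4 d light and 0.704, 0.956 and 1.39 CPM in mutant 3 d dark, against 0.97, 1.17 and 1.39 CPM in wild type 4 d light and 0.924, 1.42 and 14.6 CPM in wild type 3 d dark. Its difference of 4.85 ± 0.99 (adjusted p = 0.00219) was 2.59 (adjusted p = 0.0323) without wild-type 3 d dark library 3, which stood far above the other libraries of its group. The rule also named AT4G19370 at 3.82 ± 0.79 (adjusted p = 0.00249), with 25.4, 43.8 and 21.6 CPM in mutant 4 d light, against 4.7, 2.24 and 2.68 CPM in mutant 3 d dark, and no such separation in wild type. LURP1 (AT2G14560) had 10.5, 26.9 and 22.2 CPM in mutant 4 d light and 12.2, 0.662 and 9.53 CPM in mutant 3 d dark, against 0.323, 0 and 0 CPM in wild type 4 d light and 2.14, 3.52 and 2.03 CPM in wild type 3 d dark. The size of its difference rests on these near-zero libraries, and it was 9.62 (adjusted p = 0.0738) without wild-type 4 d light library 1. Wild type 4 d light was also low for RNS1, at 0.323, 0.352 and 0.278 CPM, and AT4G34320, at 0.216, 0.234 and 0.0927 CPM. Differences of LURP1 (5.95 ± 1.85, adjusted p = 0.0389), RNS1 (3.88 ± 1.16, adjusted p = 0.0311) and AT4G34320 (3.80 ± 1.21, adjusted p = 0.043) were each lost without any of 8 or 9 of the 12 libraries, at adjusted p-values of up to 0.116 (without wild-type 4 d light library 3), 0.0972 (without wild-type 3 d dark library 3) and 0.14 (without wild-type 3 d dark library 2).

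Levels of hypoxia genes are given side by side, since mutant and wild type were not tested at one age. Their sums reached 1280 to 1700 CPM in mutant 4 d light and 424 to 688 CPM in mutant 3 d dark, against 260 to 352 CPM in wild type 4 d light and 175 to 272 CPM in wild type 3 d dark. The change itself differed for 1 of the 12, a share near the 9.1% of all tested genes. That gene was LDH1 (AT4G17260), lactate dehydrogenase, at 1.61 ± 0.29 (adjusted p = 0.000784). LDH1 had 45.1, 49.3 and 41.5 CPM in mutant 4 d light and 28.5, 22.7 and 19.2 CPM in mutant 3 d dark, against 10.7, 9.49 and 7.69 CPM in wild type 4 d light and 13.7, 15.9 and 14.2 CPM in wild type 3 d dark. Light libraries of LDH1 were the higher in the mutant and the lower in wild type. Cell cycle genes fell in both genotypes, 24 of 29 in the mutant and 19 of 29 in wild type, and edgeR and DESeq2 called 0 differences between the changes, with 4 at an unadjusted p under 0.05 (median -0.41).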

How the data were processed

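RNA-seq read counts were deposited for 42 libraries of whole Arabidopsis seedlings in 14 groups, as 48 columns. The counts were made by the authors with featureCounts 1.6.2 on STAR alignments and TAIR10 gene models, per the file headers; a read was counted for every transcript model it overlapped and the command line holds no strand option. The deposited exon length of each model is a whole number of bases and served only to choose 1 model per gene. Reads of overlapping, antisense or near-identical genes therefore cannot be told apart with certainty. The L and Nr columns of one 3 d number differed by little more than counting error (chi-square per degree of freedom 1.04 to 1.06, against 7.12 to 40.6 for different numbers) and were summed as 1 library.

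The longest of the 40745 models was kept for each of 32678 genes; these models held 65.2% of counts. Genes that passed edgeR's filter on low counts (22586) were scaled with TMM and fitted with edgeR 4.0.16 (R 4.3.3) quasi-likelihood models over all 14 groups, with 28 residual degrees of freedom. CPM values here are TMM-scaled. Calls use a Benjamini-Hochberg adjusted p of 0.05 over all tested genes. On simulated counts the fit recovered 50 of 100 genes changed 2-fold and 100 of 100 changed 4-fold. The fit called 8 of the 21568 unchanged genes there. Whether these rates hold for the measured libraries, where 7674 of 22586 tested genes were called in the main comparison, was not tested. DESeq2 1.42.0 was an alternative, beside RLE scaling, no filter, smaller fits, a replicate block, other choices of transcript rows or runs, and leaving out each library.

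The members and gene lists were chosen with earlier results of these data known. The naming rule took KIN10 and KIN11, the 10 largest rises and 10 largest falls among called genes with a mean log2 CPM of at least 3 and groups that do not overlap, the 5 highest and 5 lowest differences between genotypes, and in each list the 3 members with the smallest adjusted p. Other genes were chosen after their values were seen. Gene names came from the RefSeq table of TAIR10.1, in which 31912 IDs matched. Sequences are RefSeq's, and the build was checked on 120114 introns, of which 99.0% began with GT and ended with AG.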

Additional observations from a re-analysis of the deposited data

Results flagged for a closer look

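The change from 3 d dark to 4 d light differed between mutant and wild type in 2055 genes by a test of the difference itself, edgeR's quasi-likelihood test of the interaction. The values below are the mutant's log2 change minus that of wild type. Groups of 3 libraries are too small for a test of single outlying samples.

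Among the genes named by size, the difference was 5.95 for LURP1, 4.29 for XTH17, 3.88 for RNS1, 3.82 for AT4G19370 and 3.80 for AT4G34320. It was -4.58 for NDB4, -4.12 for AT2G04050, -4.10 for THA1, -3.95 for DFR, -3.83 for PHI-1 and -3.56 for NDA1.

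The called differences given here for photosynthesis and photorespiration genes, which are not all that were called, were negative: -2.02 for GLDP1, -1.87 for GAPA1, -1.67 for RCA, -1.54 for SBPASE, -1.44 for RBCS1A, -1.34 for FNR1, -1.27 for ATPC1, -1.26 for AGT1, -1.21 for GDCH, -1.20 for GGT1 and -0.74 for TPI. Among antenna genes, LHCB1.4 and LHCB1.1 had 0.43 and 0.09 and were not called. The sigma factors SIG4 and SIG6 had -1.47 and -1.08.

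Clock and growth genes had 4.85 for PRR9, 3.89 for IAA6, 2.21 for IAA19, 1.81 for PRR7 and -3.54 for XTH6. Genes of energy and nitrogen status had 1.26 for EXL2, 0.89 for GLN1;3, 0.50 for bZIP25, -1.41 for DIN10, -1.71 for bZIP63 and -2.39 for ASN1. Among stress, hormone and turnover genes the difference was 4.49 for NCED9, 1.61 for LDH1, 1.33 for ATG1a, 1.1 for WRKY6, 1.02 for RPL10C, 0.60 for ATG18a, -2.39 for CHS and -2.59 for CYP707A2.

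Many of these calls rest on single libraries. Leaving out 1 of the 12 libraries in turn ended the call in 9 cases for LURP1, AT4G34320, DFR, EXL2 and bZIP25, in 8 for RNS1, AGT1, SIG4 and RPL10C, in 7 for ATG18a, in 6 for GGT1 and WRKY6, and in 5 for RBCS1A. The call ended in 4 cases for SBPASE and ASN1, in 3 for NDB4, FNR1, ATPC1, GDCH and RCA, and in 1 for ATG1a, DIN10 and CHS. The difference of LURP1 was 9.62 without wild-type 4 d light library 1, where the other 2 libraries of that group were at 0 CPM. The sizes for NDB4 and CYP707A2 rest on low wild-type 3 d dark libraries, at 0 to 0.146 and 0.0973 to 0.324 CPM.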

How the results depend on the processing

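Of 116 named genes called in the main comparison, 92 were called without each library in turn and 24 were not, and 0 reversed; of 43 called differences between genotypes, 20 were called without each library. Over all settings, 29 of the 116 and 25 of the 43 lost their call in at least 1. Fits of only the compared groups, with or without a replicate block, ended 19 and 10 of these calls. Leaving out 1 library gave 4703 to 7555 calls in the main comparison, 1255 to 2265 for the difference between genotypes, 203 to 605 for light over dark at 4 d, 2668 to 4594 for 4 d over 3 d in the dark, 4558 to 5735 in wild type and 149 to 211 list members of 218. With only the compared groups in the fit the counts were 4986, 1726, 163, 6506 and 6697 for the first 5 of these, so that 4 d over 3 d in the dark and wild type exceeded the main comparison. Same-numbered libraries of the main groups had correlations of 0.0366, 0.105 and 0.0195 in their deviations, and differently numbered ones -0.229 to 0.187. With 3 libraries per group these values cannot show whether the numbers pair the libraries. With a replicate block the counts were 4078, 1616, 86, 5058 and 5259. DESeq2 called 8320, 2683 and 871 for the first 3. A fit without the dark glucose groups, chosen after seeing the data, gave 7540 in the main comparison. The genotype difference of DFR ran from -4.55 to 0.47 with 1 library left out and reversed without wild-type 4 d light library 1 (adjusted p = 0.92). The wild-type change of PRR9 ran from -2.75 to 0.01 and reversed without wild-type 3 d dark library 3, against -2.24 with all libraries; the cause was not tested. The shallowest library, mutant 4 d light library 1 at 8008188 counts, limits the precision of low genes.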
